A study of Mus musculus with 33 samples.

Results

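Mouse spleen cells cultured for 8 h with a CpG oligodeoxynucleotide (ODN), a short synthetic DNA that carries unmethylated CpG motifs, were compared with cells cultured for 8 h with a control ODN that lacks them. The comparison uses the 6 arrays whose titles name those cultures, 3 per group, out of 33 arrays in the series. The other arrays hold the same cultures after 2 h and 4 h, with 4 arrays per group, and cells kept in medium alone at all 3 times. Each array carried Cy5-labelled cDNA of 1 culture and Cy3-labelled cDNA of Universal Mouse Reference RNA. All values are therefore log2 ratios of spleen cells over that reference, with each array's median set to 0, and a difference of 1 means a factor of 2. No source used here states the base of the logarithm, and base 2 was assumed because of how far the values extend.

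The cells came from female BALB/c mice aged 2 months, and every group of the series shares that strain, sex and age. The CpG ODN culture received ODN 1555 and ODN 1466 in equal parts and the control ODN culture ODN 1612 and ODN 1471 in equal parts, each at 1 uM and 37 C. The medium culture received no ODN. The cells were a whole spleen suspension, so B cells, T cells, macrophages and rarer cells all gave RNA to the same sample. In such bulk RNA, fewer cells of a type and less RNA per cell cannot be told apart. Of the defining B cell genes, Cd79a lay between 4.38 and 7.03 over the 6 arrays, Cd79b between 1.10 and 3.30 and Ms4a1 between -1.67 and -0.24. Of the defining T cell genes, Cd3e lay between 0.56 and 2.14 and Cd3g between 0.60 and 2.64 on the 5 arrays that measured it, and Lck had no value. Ms4a1 was thus below the reference on every array although the cells are labelled spleen cells. How much B cell RNA the reference holds was not examined.

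CpG DNA is taken up into endosomes, where the receptor Tlr9 binds it and signals through Myd88. In mice Tlr9 is found in B cells, in dendritic cells and in macrophages. Its signal turns on NF-kB, MAP kinases and interferon regulatory factors, and it is known for inducing cytokines and for bringing resting B cells into growth. Resting lymphocytes keep their state through genes that restrain division, and they circulate with the help of receptors for chemokines and lysophospholipids.

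Of 9393 genes tested, 1493 (15.9%) differed between CpG ODN and control ODN at 8 h by the moderated test of limma at a Benjamini-Hochberg adjusted p below 0.05. More genes fell than rose: 933 fell (9.93%) and 560 rose (5.96%). Fell and rose here mean lower and higher with CpG ODN than with control ODN at 8 h, not a change over time. The falls were the smaller changes, with a median of -0.84, against 1.07 for the rises. A difference of at least 1 was reached by 245 of the falls and 320 of the rises. Of the rises, 487 lay outside the list of interferon response genes, 257 of them with a difference of at least 1. All 3 CpG ODN arrays lay below all 3 control ODN arrays in 775 of the 908 falls measured on all 6 arrays, and above them in 483 of 530 such rises. Over all 7870 genes measured on all 6 arrays, the groups were separated in this way for 20.4% downward and 10.4% upward.

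The balance between falls and rises depended on how the arrays were scaled. The median difference of all genes tested was -0.12, so more than the called genes leaned downward. As centred, 37.5% of the calls were rises. With quantile normalization 504 genes rose and 384 fell, so that 56.8% of the calls were rises, and the median difference was -0.05. With the median difference of all genes set to 0, 697 rose and 544 fell, or 56.2% rises. All 384 falls with quantile normalization and all 544 with the median at 0 were among the 933. Single arrays mattered as well: 398 genes fell and 347 rose when CpG ODN replicate 3 was left out, and 399 and 583 fell when replicate 2 or replicate 3 of control ODN was.

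To show which calls did not hinge on these choices, calls were counted that were made in all of 10 fits: the reported one, each of the 6 that leave out 1 compared array, quantile normalization, the median set to 0, and a fit without the replicate number. This count was chosen after the data had been seen. In all 10 fits, 229 genes fell and 294 rose. Their median differences were -1.06 and 1.41. Of the falls of at least 1, 140 were called in all 10 fits, and of the rises of at least 1, 251. Outside the interferon list 234 rises were called in all 10.

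**Figure D1:**
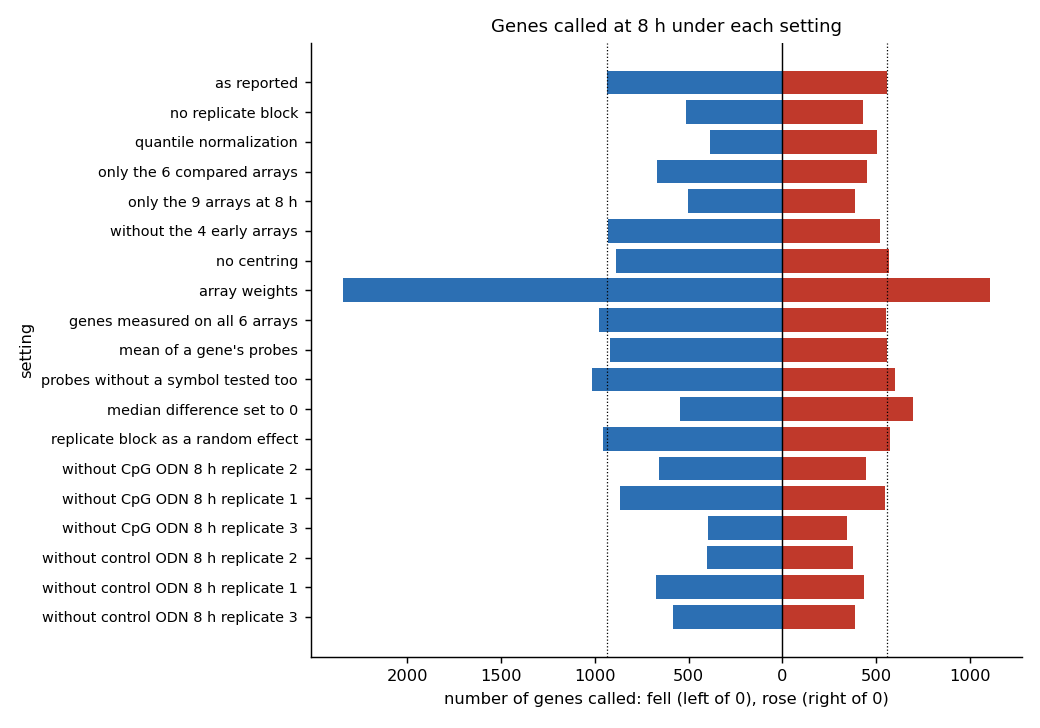
Number of genes that fell (blue, left) and rose (red, right) with CpG ODN against control ODN at 8 h, by setting; the dotted lines mark the reported counts of 933 and 560. Falls ranged from 384 with quantile normalization to 2342 with array weights, while rises ranged from 347 without CpG ODN replicate 3 to 1108 with array weights.

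Among genes measured on all 6 arrays, the largest falls were led by genes of several kinds rather than of 1 pathway. Ephx1, which encodes the microsomal epoxide hydrolase of xenobiotic metabolism, stood at -2.26, -3.23 and -3.20 on the CpG ODN arrays and at -0.11, -0.25 and -0.12 on the control ODN arrays. The 3 control arrays lay close together, and every CpG ODN array lay far below them. The fall was 2.74 ± 0.25 (SE) on the log2 scale, with limma's adjusted p = 7.32e-08. Rgs2, which speeds the shut-off of heterotrimeric G proteins, read 1.16, 0.03 and 0.45 with CpG ODN against 2.62, 2.68 and 2.38 with control ODN. CpG ODN replicate 1 was the highest of its group and still below every control array. Rgs2 fell by 2.01 ± 0.29 (adjusted p = 3.41e-05). Lpl, the lipase that frees fatty acids from lipoproteins, read -2.30, -2.34 and -3.79 against -0.16, -0.98 and -1.58. Replicate 3 was the lowest in both groups, and the groups did not overlap. Lpl fell by 1.90 ± 0.19 (adjusted p = 3.99e-07).

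Cd79b of the B cell receptor, Fcrla of B cells and H2-DMb1 of antigen presentation were also among the largest falls. Cd79b, the Ig-beta signalling chain of the B cell receptor, read 1.15, 1.10 and 1.47 with CpG ODN and 3.30, 2.79 and 3.24 with control ODN. Fcrla, an Fc receptor-like protein kept inside B cells, read 2.76, 2.91 and 3.42 against 5.20, 5.36 and 5.04. H2-DMb1, a chain of the H2-DM molecule that loads peptides onto MHC class II, read 1.50, 0.46 and 1.16 against 2.71, 2.71 and 2.81. In all 3 genes the groups were apart, and for H2-DMb1 the CpG ODN arrays were the more spread. Cd79b fell by 1.87 ± 0.29 (adjusted p = 0.00011), Fcrla by 2.18 ± 0.37 (adjusted p = 0.000329) and H2-DMb1 by 1.70 ± 0.23 (adjusted p = 1.21e-05). Ralgps2, an exchange factor for Ral GTPases, fell by 1.81 ± 0.23 on the probe used here (adjusted p = 1.2e-05) and differed by -0.83 on its other probe.

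The largest fall rested on scattered arrays. Crisp3, a cysteine-rich secretory protein of neutrophil granules, read 2.11, -2.36 and 1.96 with CpG ODN against 4.29, 4.62 and 3.84 with control ODN. CpG ODN replicate 2 lay far below the other arrays of its group, and the SE of the fall by 3.68 was 0.84 (adjusted p = 0.00501). Without control ODN replicate 2 the difference was -3.02 with adjusted p = 0.0563. P2ry10, a lysophospholipid receptor of lymphocytes, read 5.90, 5.80 and 2.08 against 7.49, 7.12 and 6.0. Here CpG ODN replicate 3 was the low array, and the others came just below the lowest control. P2ry10 fell by 2.27 ± 0.51 (adjusted p = 0.0038), with -1.19 and adjusted p = 0.0789 without CpG ODN replicate 3 and -1.53 and adjusted p = 0.0577 with quantile normalization.

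The remaining 6 of the 15 largest falls were called without each of the 6 arrays in turn. They were Jhy, a gene named for juvenile hydrocephalus (-2.05 ± 0.35), Smim14, a small membrane protein (-1.98 ± 0.21), Tm6sf1, a membrane protein of lysosomes (-1.81 ± 0.28), Dnase1l1, a relative of DNase I (-1.78 ± 0.20), Cd93, a surface lectin of early B cells and myeloid cells (-1.74 ± 0.26), and Adssl1, an enzyme of AMP synthesis (-1.74 ± 0.19). Their adjusted p-values by limma lay between 6.01e-07 for Adssl1 and 0.000281 for Jhy. For each of them all 3 CpG ODN arrays lay below all 3 control ODN arrays.

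**Figure D2:**
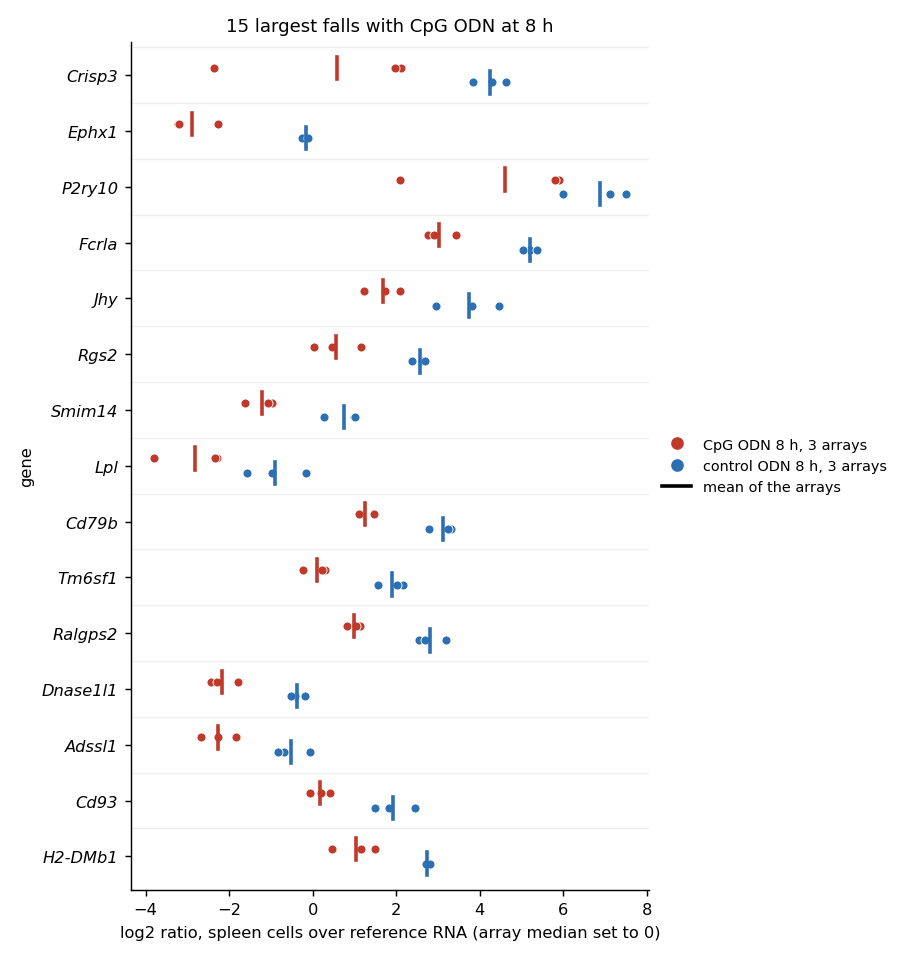
Log2 ratio of spleen cells over reference RNA on each of the 3 CpG ODN arrays (red) and 3 control ODN arrays (blue) at 8 h for the 15 largest falls; points are arrays and vertical ticks are group means. All 15 genes have groups that do not overlap, and Crisp3 and P2ry10 each have 1 CpG ODN array far below the others, at -2.36 and 2.08.

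Promoter sequences are shown for a pair of falls and a pair of rises, to set their known regulatory letters side by side. Each is the 250 bases before the annotated start, 5′ to 3′ on the gene's strand, from RefSeq GRCm38.p6. Capitals mark matches on either strand to the interferon-stimulated response element core, the NF-kB consensus, the AP-1 site (TGANTCA), the TATA box (TATAAA) and the CCAAT box (CCAAT). No marked matches overlap. The Ephx1 window is chr1:181017570-181017819 on the minus strand, that of Rgs2 chr1:144004150-144004399 on the minus strand, that of Il6 chr5:30012864-30013113 on the plus strand and that of Ifit3 chr19:34583279-34583528 on the plus strand. Ifit3, an interferon-induced gene that rose by 4.75 ± 0.32 (adjusted p = 7.85e-10), was chosen for contrast after its value was seen.
Ephx1: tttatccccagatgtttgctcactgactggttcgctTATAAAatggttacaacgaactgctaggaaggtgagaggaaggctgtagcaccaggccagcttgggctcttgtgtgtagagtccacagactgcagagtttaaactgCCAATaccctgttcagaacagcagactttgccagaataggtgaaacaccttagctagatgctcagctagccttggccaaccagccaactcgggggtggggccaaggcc
Rgs2: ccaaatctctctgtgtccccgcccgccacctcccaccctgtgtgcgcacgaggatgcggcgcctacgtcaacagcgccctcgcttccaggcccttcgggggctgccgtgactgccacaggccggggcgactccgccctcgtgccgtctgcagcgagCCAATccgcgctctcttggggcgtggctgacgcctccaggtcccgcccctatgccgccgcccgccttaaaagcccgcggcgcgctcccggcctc
Il6: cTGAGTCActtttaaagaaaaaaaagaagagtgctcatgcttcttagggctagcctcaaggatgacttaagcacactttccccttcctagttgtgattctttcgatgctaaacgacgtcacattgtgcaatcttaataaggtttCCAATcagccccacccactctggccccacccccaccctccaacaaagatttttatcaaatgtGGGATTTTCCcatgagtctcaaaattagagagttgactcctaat
Ifit3: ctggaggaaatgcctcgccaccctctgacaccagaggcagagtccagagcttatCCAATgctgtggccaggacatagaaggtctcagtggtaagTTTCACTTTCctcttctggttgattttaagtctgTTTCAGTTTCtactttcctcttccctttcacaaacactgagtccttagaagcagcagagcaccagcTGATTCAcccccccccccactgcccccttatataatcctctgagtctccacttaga
The Ifit3 window holds 2 response element cores and the Il6 window an NF-kB match and an AP-1 match, while the Ephx1 and Rgs2 windows hold none of these 3. Promoters were found for 7501 of the genes tested, among them 768 of the 933 falls and 388 of the 487 rises outside the interferon list. The response element core stood in 2.69% of all these promoters, in 1.17% of the falls, in 3.35% of the rises outside the interferon list and in 33.9% of the 59 rises of that list. The NF-kB consensus stood in 8.15% of all, 8.33% of the falls and 6.70% of the rises outside the interferon list. The AP-1 site stood in 5.48%, 6.90% and 4.38%, and the CCAAT box in 36.4%, 34.0% and 38.7% of the same promoters. These shares describe letters in a short window and carry no test.

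The falls were then read by function, on 38 gene lists, with the share of all tested genes that fell (9.93%) as the background. By rule, lists with over 8 called genes could have the 2 with limma's smallest p per direction named, though not all of these are given. Their other named members were chosen after their values were seen, from those called in all 10 fits. Among genes of B cell identity and receptor signalling, 10 of 38 fell and 2 rose, with a median difference of -0.45. Of the 38, 24 lay below 0, as did 5748 of all 9393 genes tested. Cd79b, Fcrla and Ralgps2 were the 3 falls called in all 10 fits, and with quantile normalization 6 fell. The rises were Pik3ap1, an adaptor that links the B cell receptor and Toll-like receptors to PI3 kinase (1.32 ± 0.21, adjusted p = 0.000161), and Swap70, which shapes the actin skeleton of activated B cells (1.18 ± 0.24, adjusted p = 0.00133). Over the members measured on all 6 arrays, as for the other lists, the median level was 1.85 to 1.91 on the CpG ODN arrays and 2.35 to 2.49 on the control ODN arrays, with no overlap. The part of B cell numbers in these falls was not tested. Against medium at 8 h, 6 of 37 members fell and 3 rose, with a median of -0.09 beside -0.13 for all genes.

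Of 16 genes of MHC class II antigen presentation, 3 fell and 1 rose, with a median of -0.44 and median levels of 0.97 to 1.52 against 1.81 to 2.00. Besides H2-DMb1, the falls were Ciita, the master activator of class II genes (-0.70 ± 0.20, adjusted p = 0.0183), and Rfxank, a subunit of the factor that binds their promoters (-0.67 ± 0.17, adjusted p = 0.00865). Rfx5, another subunit of that factor, rose by 0.71 ± 0.21 (adjusted p = 0.0229). Of these 4, H2-DMb1 was called in all 10 fits. Ciita lost its call without CpG ODN replicate 1 (adjusted p = 0.0973) or 3 (0.12) or control ODN replicate 1 (0.0531) or 2 (0.0978). Rfxank lost it without CpG ODN replicate 2 (0.0569) or control ODN replicate 1 (0.0521), and Rfx5 without CpG ODN replicate 2 (0.116) or 3 (0.116) or control ODN replicate 2 (0.125) or 3 (0.0825).

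Of 24 T cell markers 5 fell and 0 rose, with a median of -0.48. They were Cd3g and Cd3e, chains of the T cell receptor complex, Lat, the adaptor that relays its signal, the transcription factor Lef1 and the coreceptor Cd5. Cd3g read 0.60 and 1.36 on the 2 CpG ODN arrays that measured it and 2.23, 2.64 and 2.35 with control ODN, and it fell by 1.67 ± 0.33 (adjusted p = 0.00121). Lat read 0.05, -0.39 and 0.00 against 1.22, 0.69 and 1.35 and fell by 1.20 ± 0.21 (adjusted p = 0.000521), in all 10 fits. Both genes had groups that did not overlap. Cd3e fell by 1.01 ± 0.24 (adjusted p = 0.00498), but its adjusted p was 0.0538 without replicate 3 of CpG ODN and 0.0529 without replicate 2 of control ODN. Lef1 fell by 1.05 ± 0.24 (adjusted p = 0.00488), with 0.0588 without control ODN replicate 2. Cd5 fell by 0.90 ± 0.23 (adjusted p = 0.00932), with 0.0586 without replicate 3 of CpG ODN and 0.0599 and 0.0563 without replicates 2 and 1 of control ODN. The median level of the list was 0.98 to 1.89 with CpG ODN and 1.95 to 2.94 with control ODN, and the part of T cell numbers was not tested.

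Among macrophage and red pulp markers 8 of 30 fell and 0 rose, with a median of -0.30. Cd14, the coreceptor for lipopolysaccharide, read -0.52, -1.72 and -1.57 with CpG ODN against 0.97, -0.29 and 0.09 with control ODN. Replicate 1 was the highest in both groups, and Cd14 fell by 1.53 ± 0.17 (adjusted p = 1.38e-06). Fcgr3, a low-affinity receptor for IgG, fell by 1.32 ± 0.30 (adjusted p = 0.00346) and Vcam1, an adhesion molecule of stroma and macrophages, by 1.01 ± 0.16 (adjusted p = 0.00011), and these 3 were called in all 10 fits. The scavenger receptor Cd163, Clec7a, Cd5l, Apoe and Cd68 also fell, by 0.87 to 1.60, but each lost its call without at least 1 array. With replicate 2 of CpG ODN left out, Clec7a had adjusted p = 0.053, and with replicate 3 left out Cd68 had 0.0517 and Apoe 0.0902. With replicate 1 of control ODN left out Cd5l had 0.0533, and with replicate 2 left out Apoe had 0.085. Cd163 had 0.0589 to 0.0996 without CpG ODN replicate 2 or 3 or control ODN replicate 2 or 3. The list's median level was 0.05 to 0.62 with CpG ODN and 0.39 to 0.97 with control ODN, so here the groups overlapped.

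Smaller cell lists moved less evenly. Of 20 neutrophil and myeloid precursor genes 3 fell and 1 rose, none of them in all 10 fits. Of 22 erythroid genes 4 fell, with Epb42, a protein of the red cell membrane skeleton, the member called in all 10 fits (-0.99 ± 0.21, adjusted p = 0.00224). Of 14 dendritic cell markers, Sirpa, an inhibitory receptor of myeloid cells, fell by 1.29 ± 0.16 (adjusted p = 6.1e-06) and the transcription factors Irf4 and Irf8 rose. Irf4 rose by 1.36 ± 0.25 (adjusted p = 0.000561) in all 10 fits. Irf8 rose by 1.27 ± 0.34 (adjusted p = 0.012), but its adjusted p was 0.0688 without replicate 3 of CpG ODN and 0.0681 and 0.0687 without replicates 2 and 3 of control ODN. Among 12 platelet genes 2 rose and 1 fell, with a median of -0.24. The rises, Plek and Itgb3, were not called in all 10 fits, while Gp9, part of the receptor for von Willebrand factor, fell by 0.75 ± 0.17 (adjusted p = 0.00375), with 0.0593 in a fit of the 9 arrays at 8 h alone.

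Of 49 genes for chemoattractant receptors and G protein signalling 14 fell and 2 rose (median -0.27), with 5 falls under quantile normalization and 4 in all 10 fits. Those 4 were Rgs2, S1pr1, Arrb1 and C3ar1. S1pr1, the sphingosine-1-phosphate receptor that lymphocytes use to leave lymphoid organs, read 3.40, 3.06 and 3.32 with CpG ODN against 4.48, 4.38 and 4.53 with control ODN. The spread within each group was small beside the gap, and S1pr1 fell by 1.20 ± 0.21 (adjusted p = 0.000418). Arrb1, beta-arrestin that uncouples receptors from G proteins, fell by 1.11 ± 0.19 (adjusted p = 0.000211) and C3ar1, the receptor for the complement fragment C3a, by 1.06 ± 0.20 (adjusted p = 0.000917). Gpr65, a proton-sensing receptor, went the other way and rose by 1.39 ± 0.22 (adjusted p = 0.000142), in all 10 fits.

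Of 59 small GTPase and actin regulators 12 fell and 0 rose (median -0.24), with 6 under quantile normalization. Gsn, which severs actin filaments, read -3.61, -3.41 and -4.17 against -2.01, -2.19 and -1.98 and fell by 1.66 ± 0.23 (adjusted p = 2.44e-05), without overlap. The focal adhesion protein Zyx (-0.82 ± 0.17) and the myosin light chain Myl6 (-0.79 ± 0.18) were also called in all 10 fits. Of 57 integrins and adhesion molecules 10 fell and 3 rose (median -0.31). Itgb2, the beta chain shared by the leukocyte integrins, fell by 0.87 ± 0.19 (adjusted p = 0.00293) and Adam8, a membrane protease of leukocytes, by 0.98 ± 0.17 (adjusted p = 0.000351). Slamf1, a self-binding receptor of activated lymphocytes, rose by 2.26 ± 0.19 (adjusted p = 1.05e-07).

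Genes that mark resting lymphocytes fell in 11 of 39 cases and rose in 1, with a median of -0.36, and 6 of the falls held in all 10 fits. Tsc22d3, a glucocorticoid-induced leucine zipper protein, read 1.71, 1.29 and 1.58 against 2.60, 2.32 and 2.75 and fell by 1.03 ± 0.18 (adjusted p = 0.000348). Mxd4, a partner of Max that opposes Myc, fell by 1.04 ± 0.19 (adjusted p = 0.000822). Btg2, which slows division (-1.04 ± 0.21), the cyclin Ccng2 (-0.98 ± 0.23), the retinoblastoma gene Rb1 (-0.95 ± 0.21) and Cd55, which shields cells from complement (-1.66 ± 0.33), were the other 4. Cdkn2d, an inhibitor of the G1 kinases, rose by 1.73 ± 0.29 (adjusted p = 0.000233) although it was listed among genes of rest. The list of cell cycle genes was divided, with 8 of 70 up and 8 down. Ccnd2, a G1 cyclin, rose by 2.42 ± 0.24 (adjusted p = 2.22e-07), and Cdk4, its kinase, by 0.86 ± 0.17 (adjusted p = 0.00146), while Cenpa, the histone of centromeres, fell by 1.34 ± 0.17 (adjusted p = 7.76e-06).

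Of 79 genes of lysosomes and vesicle sorting 20 fell and 1 rose (median -0.31), with 9 falls under quantile normalization and 4 in all 10 fits. Tpp1, a lysosomal peptidase, read -1.36, -1.45 and -1.35 with CpG ODN and -0.22, -0.41 and -0.23 with control ODN. The 3 CpG ODN arrays agreed closely, and Tpp1 fell by 1.10 ± 0.18 (adjusted p = 0.00017). Asah1, acid ceramidase, fell by 1.02 ± 0.18 (adjusted p = 0.000385), Vamp8, a fusion protein of endosomes, by 0.95 ± 0.17 and Atp6v0d1, a subunit of the proton pump, by 0.92 ± 0.16, each with adjusted p = 0.0004. Of 65 genes of lipid, cholesterol and xenobiotic metabolism 12 fell and 1 rose, with a median of -0.13 that lay next to the -0.12 of all genes. Here 7 falls held in all 10 fits. Besides Ephx1 and Lpl they included Abca1, which exports cholesterol (-1.63 ± 0.23, adjusted p = 3.49e-05), Plin2, the coat protein of lipid droplets (-0.93 ± 0.18, adjusted p = 0.00108), and Hpgds, a prostaglandin D synthase (-1.04 ± 0.24, adjusted p = 0.00404). Fasn, the fatty acid synthase, rose by 1.59 ± 0.35 (adjusted p = 0.00285).

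In signalling, Rasgrp2, which activates Rap1 in lymphocytes and platelets, fell by 1.64 ± 0.31 (adjusted p = 0.000717), Rasa3, a GTPase-activating protein for Ras and Rap, by 1.45 ± 0.20 (adjusted p = 3.49e-05) and Mapk14, the p38 alpha kinase, by 0.95 ± 0.16 (adjusted p = 0.000279). They were 3 of the 7 falls among 54 genes of MAP kinases, AP-1 and immediate early response, of which 3 rose. Il16, a chemoattractant for cells with Cd4, read 1.72, 2.05 and 1.93 against 3.15, 3.22 and 3.22 and fell by 1.30 ± 0.21 (adjusted p = 0.000209). Its control arrays were nearly equal, and all lay above the CpG ODN arrays. Mef2c, a transcription factor that B cells need to proliferate on receptor signals, fell by 1.31 ± 0.21 (adjusted p = 0.00017), and Smarca2, an ATPase of SWI/SNF chromatin remodelling, by 1.26 ± 0.16 (adjusted p = 9.45e-06).

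Of 57 cytosolic ribosomal protein genes 25 fell and 1 rose, with a median of -0.50, but 6 fell under quantile normalization, 10 with the median set to 0 and 1 in all 10 fits. That gene was Rpl26, with 0.04, -0.07 and -0.05 against 1.16, 0.44 and 0.44, a fall of 0.71 ± 0.16 (adjusted p = 0.00311), with 0.0648 in a fit of the 6 compared arrays alone and 0.0585 with the 9 arrays at 8 h. Control ODN replicate 1 stood apart upward there. The same array was the highest for the list as a whole, with a median level of 0.88 against 0.46 and 0.35 on the other control arrays and -0.01 to 0.05 on the CpG ODN arrays. Against medium at 8 h, 5 of these 57 genes fell, but their median was -0.41, beside -0.13 for all genes. With quantile normalization their median against control ODN was -0.42, beside -0.05 for all genes. Without the replicate block 23 of them fell. Of 140 zinc finger protein genes 20 fell and 4 rose, with 6 falls under quantile normalization and 2, Zfp512 and Zfp580, in all 10 fits, and 26 fell against medium. Oxidative phosphorylation subunits fell in 5 of 57 cases, none in all 10 fits, with a median of 0.00.

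**Figure D3:**
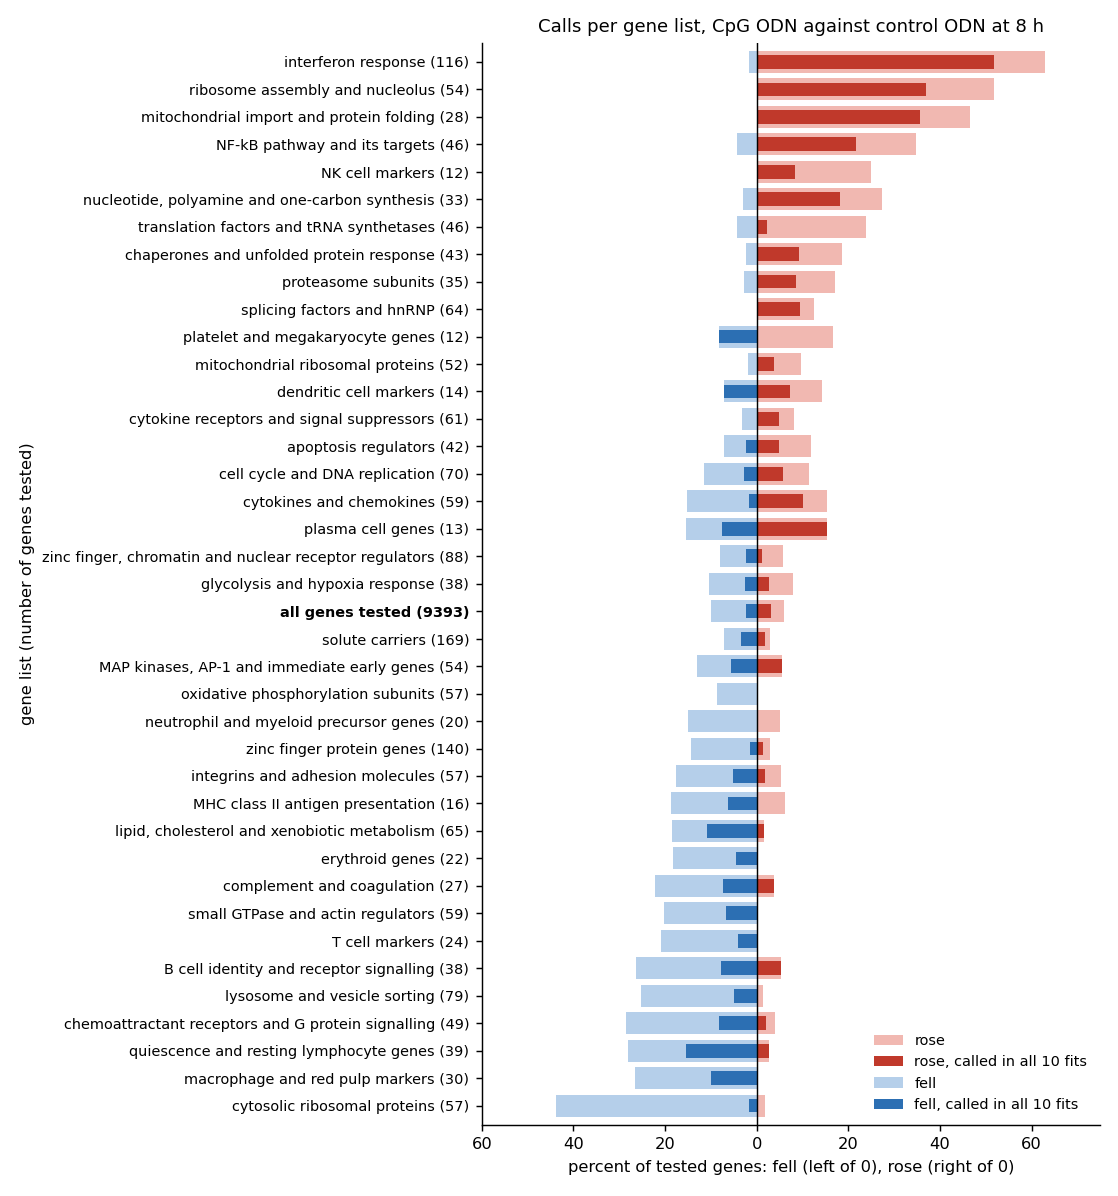
Share of each list's tested genes that fell (left, blue) or rose (right, red) with CpG ODN against control ODN at 8 h, in percent; pale bars are the reported calls, dark bars the calls made in all 10 fits, and the number of genes tested stands after each name. All genes tested fell in 9.93% and rose in 5.96% of cases, and the long pale bar of the cytosolic ribosomal proteins (25 of 57 falls) has a dark bar of 1 gene.

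Outside the interferon genes, the largest rise was that of Il6, a cytokine of inflammation and B cell growth. Il6 read 3.95, 4.03 and 4.17 with CpG ODN and 0.42, 0.08 and -0.33 with control ODN, a rise of 4.00 ± 0.24 (adjusted p = 5.54e-11). The next largest were less familiar genes. Ly6f, a surface protein of the Ly6 family, read 1.29, 1.78 and 2.21 against -1.66, -0.90 and -2.21 and rose by 3.35 ± 0.38 (adjusted p = 1.38e-06). Prss56, a trypsin-like serine protease, read 2.61, 2.68 and 2.29 against -0.55, -1.04 and -0.37 and rose by 3.18 ± 0.24 (adjusted p = 4.16e-09). Cfb, factor B of the alternative complement pathway, read 3.40, 3.01 and 2.58 against 0.43, -0.01 and -0.08 and rose by 2.88 ± 0.28 (adjusted p = 4.91e-07). In none of the 12 largest rises did the groups overlap, and all 12 were called without each of the 6 arrays in turn.

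The other 8 were C1ql1, a secreted relative of complement C1q (3.02 ± 0.30), Spag16, a protein of the sperm axoneme (2.98 ± 0.29), Dpp6, a partner of potassium channels (2.95 ± 0.26), Mfsd2a, a transporter of lysophospholipids (2.82 ± 0.24), B4galnt2, a glycosyltransferase (2.74 ± 0.26), Adcy3, an adenylate cyclase (2.71 ± 0.22), Zc2hc1c, a zinc finger protein (2.64 ± 0.24), and Rbp7, a retinol-binding protein (2.60 ± 0.19). Their adjusted p-values lay between 3.59e-09 for Rbp7 and 3.31e-07 for B4galnt2. Each gene was read on a single probe, named from an array annotation that can be old.

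**Figure D4:**
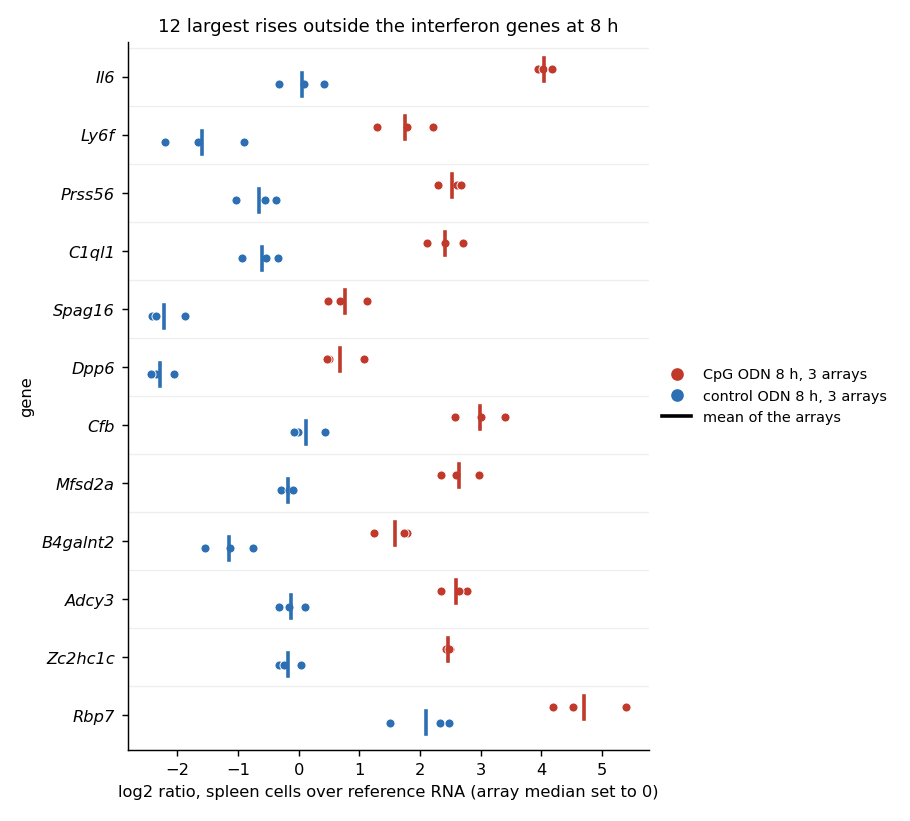
Log2 ratio of spleen cells over reference RNA on each of the 3 CpG ODN arrays (red) and 3 control ODN arrays (blue) at 8 h for the 12 largest rises outside the interferon list; points are arrays and vertical ticks are group means. The groups do not overlap in any of the 12, from Il6 with a rise of 4.00 to Rbp7 with a rise of 2.60.

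Of 46 genes of the NF-kB pathway and its targets 16 rose and 2 fell (median 0.30), and 10 rises held in all 10 fits. Nfkbiz, a nuclear NF-kB cofactor, rose by 2.31 ± 0.21 (adjusted p = 5.03e-08), Csf2, a growth factor for myeloid cells, by 2.44 ± 0.25 (adjusted p = 1.96e-06), the prostaglandin synthase Ptgs2 by 1.83 ± 0.26 (adjusted p = 2.51e-05), the costimulatory receptor Cd40 by 1.57 ± 0.29 (adjusted p = 0.000759) and the inhibitor Nfkbia by 1.15 ± 0.21 (adjusted p = 0.000534). Of the falls, Tlr4 had another probe with a difference of 0.33, and neither fall was called in all 10 fits. Among 59 cytokines and chemokines 9 rose and 9 fell. The rises in all 10 fits were Il6, Csf2, Tnf (2.51 ± 0.25), Ccl3 (2.04 ± 0.22), Il10 (1.78 ± 0.36) and Il1rn (1.69 ± 0.19), which span inflammatory cytokines and their inhibitors, and the fall was Il16. Of the AP-1 genes, Jun rose by 2.31 ± 0.22 (adjusted p = 9.25e-08), Atf3 by 1.98 ± 0.27 (adjusted p = 1.86e-05) and Batf by 1.57 ± 0.28 (adjusted p = 0.000486).

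Of 54 genes of ribosome assembly and the nucleolus 28 rose and 0 fell, with a median of 0.74 and 20 rises in all 10 fits. Wdr36, part of the small subunit processome, read 1.65, 2.53 and 2.17 with CpG ODN against -0.33, 0.11 and 0.45 with control ODN and rose by 2.04 ± 0.20 (adjusted p = 2.22e-07). Rrp1b, a nucleolar processing factor, read 0.71, 1.38 and 1.05 against 3 control arrays between -0.89 and -0.87 and rose by 1.93 ± 0.21 (adjusted p = 8.16e-07). Nolc1, Nop58, Npm1 and Heatr1 rose by 1.01 to 1.59. Of 28 genes of mitochondrial import and protein folding 13 rose and 0 fell (median 0.73, 10 in all 10 fits). Hspd1, the mitochondrial chaperonin, rose by 1.50 ± 0.22 (adjusted p = 5.82e-05) and Timm9, an inner membrane import chaperone, by 1.42 ± 0.19 (adjusted p = 1.97e-05).

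Of 33 genes of nucleotide, polyamine and serine-derived carbon unit synthesis 9 rose and 1 fell. Srm, the spermidine synthase, rose by 2.20 ± 0.30 (adjusted p = 4.39e-05), Atic, an enzyme of purine synthesis, by 1.74 ± 0.35 (adjusted p = 0.00147) and Shmt2, the mitochondrial serine hydroxymethyltransferase, by 1.17 ± 0.19 (adjusted p = 0.000135). Of 43 chaperone genes 8 rose and 1 fell, with the chaperonin subunits Cct6a (1.33 ± 0.18) and Cct3 (1.24 ± 0.23) among them, and of 64 splicing factors 8 rose and 0 fell, among them Hnrnpab (1.17 ± 0.21) and Snrpd1 (1.14 ± 0.23). Of 46 translation factors and tRNA synthetases 11 rose and 2 fell, but Lars, the leucyl-tRNA synthetase, was the member called in all 10 fits (1.07 ± 0.19, adjusted p = 0.000351). Of 38 genes of glycolysis and the hypoxia response 3 rose and 4 fell, with a median of 0.15. Hk2, the inducible hexokinase, rose by 1.17 ± 0.17 (adjusted p = 2.92e-05) and Epas1 fell by 0.91 ± 0.20 (adjusted p = 0.00321), both in all 10 fits. Of 35 proteasome subunits 6 rose and 1 fell, among them Psmb10, a subunit of the immunoproteasome (1.39 ± 0.28, adjusted p = 0.00137).

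Among 12 NK cell markers 3 rose and 0 fell, and 4 lay below 0, with a median difference of 0.17. Over the 8 members measured on all 6 arrays the median level was 2.96 to 3.02 with CpG ODN against 1.79 to 2.05 with control ODN. Tbx21, the T-bet transcription factor, which B cells and T cells can also express, read 3.30, 3.84 and 3.84 against 1.45, 0.91 and 1.54 and rose by 2.36 ± 0.30 (adjusted p = 1.19e-05) in all 10 fits. Gzmb, a protease of cytotoxic granules, rose by 1.83 ± 0.45 (adjusted p = 0.00916), but its adjusted p was 0.096 without replicate 3 of CpG ODN and 0.0529 and 0.0635 without replicates 2 and 3 of control ODN. Klrk1, an activating receptor of NK cells, rose by 1.36 ± 0.42 on 5 arrays (adjusted p = 0.0352), with 0.0534 under quantile normalization and 0.142 without the replicate block. Of 42 apoptosis regulators 5 rose and 3 fell, with a median of 0.02. Cflar, an inhibitor of caspase-8 activation, rose by 1.56 ± 0.21 (adjusted p = 1.67e-05) and the electron carrier Cycs by 1.30 ± 0.28 (adjusted p = 0.00252), while the effector caspase Casp6 fell by 1.08 ± 0.20 (adjusted p = 0.000641), each in all 10 fits. The death receptor Fas, Casp8 and Casp4 also rose, and the survival gene Mcl1 and the adaptor Tradd fell, but each of these 5 lost its call without at least 1 array. The adjusted p of Casp4 was 0.0584 without replicate 2 of control ODN. Without replicate 3 of CpG ODN it was 0.132 for Fas, 0.0664 for Casp8, 0.119 for Mcl1 and 0.0501 for Tradd. For reference, 73 of 116 interferon response genes rose and 2 fell, with a median of 1.17, among them Cxcl11 (4.68 ± 0.21) and Ifit1 (4.43 ± 0.20).

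At 4 h, on other arrays, 48 of 9554 genes (0.502%) differed between CpG ODN and control ODN, 47 upward (0.492%) and 1 downward (0.0105%). The single fall was Plin2, at -0.78 ± 0.16 (adjusted p = 0.0161). Without CpG ODN replicate 3 or control ODN replicate 3 at 4 h, 25 and 22 genes rose. No gene fell without CpG ODN replicate 3 or 4 or control ODN replicate 1, 2 or 4, and 3 fell without CpG ODN replicate 2. Of the 930 genes that fell at 8 h and were tested at 4 h, 664 (71.4%) lay below 0 at 4 h, with a median of -0.10, while 52.5% of all genes did. Of 557 rises tested at 4 h, 492 (88.3%) lay above 0, with a median of 0.26, against 47.5% of all genes, and 39 were called.

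The change of the difference from 4 h to 8 h was tested itself, and 329 of 9284 genes (3.54%) passed, 164 toward higher (1.77%) and 165 toward lower values (1.78%). Of the 8 h falls 157 were among them, and of the rises 163. The 8 h arrays that chose these falls and rises also enter this test, which favours changes in the same direction. The overlap and the changes of named genes are therefore a description and no independent support. The count of genes that changed downward was 91 and 76 with replicates 2 and 3 of the 8 h CpG ODN arrays left out, and 68 and 101 without control ODN replicates 2 and 1. It was 92 without CpG ODN replicate 4 at 4 h and 94 and 103 without control ODN replicates 1 and 3 at 4 h. In all, 215, 201 and 190 genes changed without CpG ODN replicate 2 or 3 or control ODN replicate 2 at 8 h. Ephx1 differed by -0.35 at 4 h and changed by -2.39 from there (adjusted p = 0.000129), and Cd79b by -0.15 with a change of -1.72 (adjusted p = 0.013). H2-DMb1 differed by -0.06 with a change of -1.64 (adjusted p = 0.00204). Rgs2 stood at -0.70 at 4 h, which was not called (adjusted p = 0.612), and its change of -1.31 narrowly failed to pass (adjusted p = 0.0598). Among the rises, Tnf differed by 2.96 and Nfkbiz by 2.27 at 4 h already, and neither changed by the test (adjusted p = 0.576 and 0.967), whereas Il6 went from 1.18 by a further 2.81 (adjusted p = 8.68e-06) and Csf2 from 0.52 by 1.92 (adjusted p = 0.00235).

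Levels over time are given for each culture. From 2 h to 8 h the genes that fell changed by a median of -0.36 with CpG ODN, and by 0.40 with control ODN and 0.32 in medium. Of them 69.6% were lower at 8 h than at 2 h with CpG ODN, but 26.2% with control ODN and 28.3% in medium. Over all genes tested the medians were -0.05, -0.01 and 0.03. The 487 rises outside the interferon list changed by 0.88 with CpG ODN, -0.21 with control ODN and -0.13 in medium. The 8 h arrays of both CpG ODN and control ODN chose these genes, so the medians of both cultures are a description and do not single out 1 culture. The medium arrays were not among those compared, but they are not free of that choice. At 8 h their deviations correlated with those of control ODN arrays of the same number (0.484, 0.653 and 0.645). The medium values are therefore a description too. There 28.3% of the falls were lower at 8 h than at 2 h, beside 47.2% of all genes, so most of the falls went up in medium. Ephx1 averaged -0.30, -0.94 and -2.90 at 2, 4 and 8 h with CpG ODN and -0.17, -0.17 and -0.34 in medium. H2-DMb1 averaged 2.17, 2.43 and 1.04 with CpG ODN and 2.67, 2.85 and 2.49 in medium. Crisp3 moved in the controls too, from 2.83 at 2 h to 4.25 at 8 h with control ODN and from 2.90 to 4.69 in medium, while it averaged 3.10 and 0.57 with CpG ODN. C3ar1 went up in all 3 cultures, but least with CpG ODN. It went from -0.28 to 0.63 with CpG ODN, from -0.30 to 1.69 with control ODN and from -0.38 to 1.66 in medium.

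**Figure D5:**
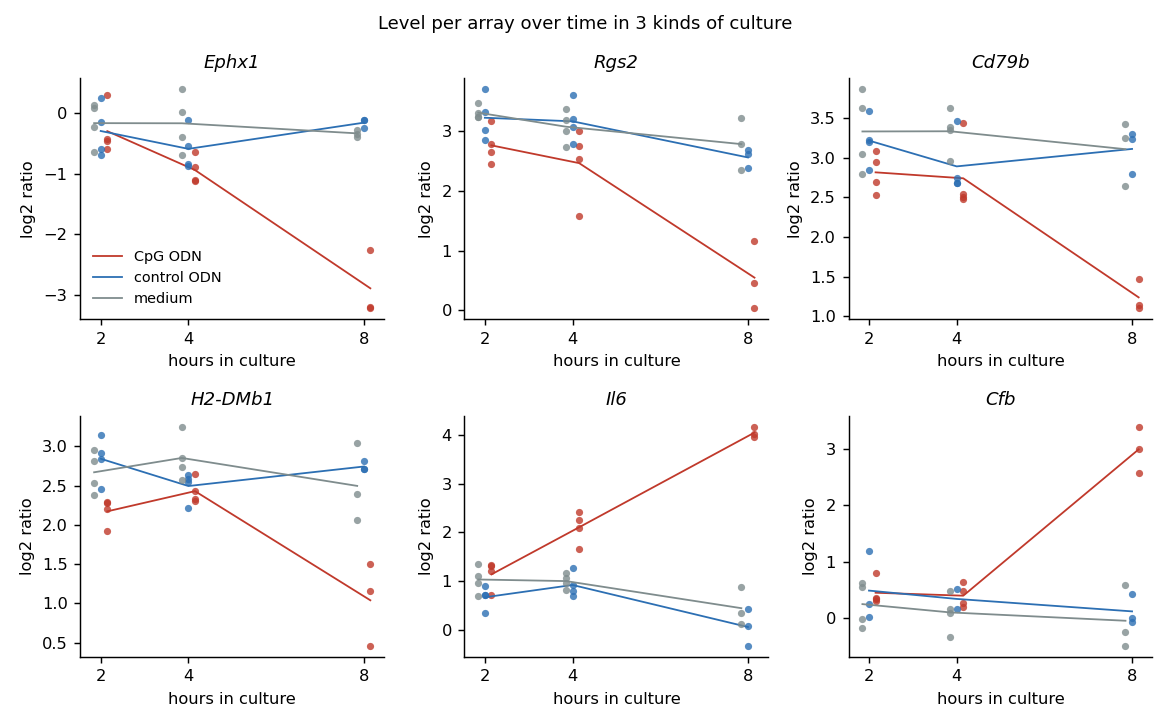
Log2 ratio over reference RNA on each array after 2, 4 and 8 h for 4 falls (Ephx1, Rgs2, Cd79b, H2-DMb1) and 2 rises (Il6, Cfb) in CpG ODN (red), control ODN (blue) and medium (grey) cultures; points are arrays and lines join group means. At 8 h the CpG ODN means of Ephx1 (-2.90), Cd79b (1.24), H2-DMb1 (1.04) and Cfb (3.00) lie apart from both controls. At 2 h the CpG ODN mean of H2-DMb1 (2.17) is below every control ODN and medium array of that time. At 4 h it is 2.43 against 2.49 and 2.85, and the 2 h difference was not tested. Ephx1 at 4 h averages -0.94 with CpG ODN against -0.59 and -0.17. The CpG ODN mean of Il6 is 2.11 at 4 h and 4.05 at 8 h.

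Medium alone gave a separate baseline for the same CpG ODN arrays. Against medium at 8 h 1717 of 9288 genes (18.5%) differed, 696 upward (7.49%) and 1021 downward (11%). These counts share the CpG ODN arrays with the comparison above and are no independent support. Downward they were 454 and 549 with replicates 2 and 3 of CpG ODN left out, 610 and 469 with replicates 2 and 3 of medium left out, and upward 420 and 441 without CpG ODN replicate 2 and medium replicate 2. In all they were 874 and 1066 without CpG ODN replicates 2 and 3 and 1051 and 936 without medium replicates 2 and 3. The 15 largest falls lay between -1.45 for H2-DMb1 and -4.12 for Crisp3 against medium. Not all falls against control ODN passed against medium. Of the 5 T cell falls, Cd3e was at -0.36 (adjusted p = 0.316), Lef1 at -0.54 (adjusted p = 0.131) and Cd5 at -0.53 (adjusted p = 0.111) against medium and did not pass. Nor did Apoe at -0.61 (adjusted p = 0.231), Rasgrp2 at -0.59 (adjusted p = 0.198) and Mxd4 at -0.56 (adjusted p = 0.0906). Control ODN against medium at 8 h gave 1 call in 9449 genes (0.0106%), a fall of the helicase gene Dqx1 by 1.95 ± 0.28 (adjusted p = 0.0246), and 0 rises. At an unadjusted p below 0.05 limma found 600 of these 9449 genes, 376 without the replicate block and 424 with quantile normalization. With no effect at all, a share of about 0.05 of the genes would lie below that threshold. The Dqx1 call was lost without control ODN replicate 3, medium replicate 2 or medium replicate 3, and 3 genes were called without control ODN replicate 1 or medium replicate 1.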

How the data were processed

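Spotted 2-colour arrays compared Cy5-labelled cDNA of cultured mouse spleen cells with Cy3-labelled cDNA of a reference RNA. The deposited values are log2 ratios of Cy5 over Cy3 in the series' value table; how the authors corrected background and normalized them is not stated in the labels or headers used, and every array has the same dye orientation, so a dye effect shared by all arrays cancels between groups. Each array was centred on its median. Probes were named from the platform annotation (14656 of 16720 with 1 symbol) and a gene was read on the probe with fewest missing values, giving 9672 genes. On the 6 arrays 10095 to 11113 probes were measured, and the number of arrays limits the precision.

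A linear model with 9 group means and the replicate number within time as a block was fitted to all 33 arrays, with limma 3.58.1 (R 4.3.3) moderation and Benjamini-Hochberg adjustment at 0.05. Genes measured for at least 2 replicate numbers in both groups were tested, so missing spots were left out and none imputed. The labels describe independent experiments. The procedure was tested on simulated data. Tables were handled in Python 3.11.15 with pandas 2.3.3. Genes were named by rule: the 15 largest falls and the 12 largest rises outside the interferon list. Called members of each list could be named too, all of them up to 8 and otherwise the 2 with limma's smallest p per direction. Not all of these members are named in the text, and some lists are not described. Other genes were chosen as stated where they are named. The comparison, its members and the 38 gene lists were chosen with earlier results of these data known. Alternatives covered the block, scaling, probes, arrays fitted and each array left out.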

Additional observations from a re-analysis of the deposited data

Results flagged for a closer look

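The difference between CpG ODN and control ODN changed from 4 h to 8 h by limma's test for 329 of 9284 genes. The genes named here were chosen on the same 8 h arrays that enter this test, so their changes are no independent support. Among the 15 largest falls, the difference changed by -2.39 for Ephx1 (adjusted p = 0.000129), -2.28 for Fcrla (adjusted p = 0.0101), -1.91 for Jhy (adjusted p = 0.0209), -1.72 for Cd79b (adjusted p = 0.013), -1.69 for Smim14 (adjusted p = 0.000886) and -1.64 for H2-DMb1 (adjusted p = 0.00204). It changed by -1.62 for Lpl (adjusted p = 0.000564), -1.55 for Ralgps2 (adjusted p = 0.00791), -1.51 for Adssl1 (adjusted p = 0.000701), -1.42 for Tm6sf1 (adjusted p = 0.0438), -1.38 for Dnase1l1 (adjusted p = 0.0036) and -1.32 for Cd93 (adjusted p = 0.0321).

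Among the 12 largest rises outside the interferon list the change was 3.44 for Ly6f (adjusted p = 0.000208), 2.82 for Cfb (adjusted p = 0.000563), 2.81 for Il6 (adjusted p = 8.68e-06), 2.71 for Prss56 (adjusted p = 1.99e-05), 2.62 for C1ql1 (adjusted p = 0.000334) and 2.34 for Zc2hc1c (adjusted p = 9.65e-05). It was 2.30 for Adcy3 (adjusted p = 6.26e-05), 2.27 for Dpp6 (adjusted p = 0.000283), 2.24 for B4galnt2 (adjusted p = 0.000886), 2.00 for Rbp7 (adjusted p = 6.8e-05), 1.90 for Spag16 (adjusted p = 0.00901) and 1.54 for Mfsd2a (adjusted p = 0.011).

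Single arrays at 4 h stood apart from the other 3 of their group by Dixon's criterion in 5 of 48 groups looked at, where chance gives about 1 in 20. Cd79b read 3.44 on 1 CpG ODN array (group median 2.52) and 3.46 on 1 control ODN array (median 2.71). Tm6sf1 read 1.67 on 1 control ODN array (median 1.37). Prss56 read -0.21 on 1 CpG ODN array (median 0.39) and Zc2hc1c -0.50 on 1 control ODN array (median 0.45).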

How the results depend on the processing

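At 8 h, 947 genes were called between CpG ODN and control ODN without the replicate block, 888 with quantile normalization, 888 with the 9 arrays at 8 h alone and 3450 with array weights, and 745 to 1414 with 1 array left out. Falls numbered 516, 384, 503 and 2342 in those fits, 544 with the median difference set to 0 (an alternative chosen after seeing the data) and 398 to 868 with 1 array left out. Rises numbered 1108 with array weights and 347 to 546 with 1 array left out.

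At 4 h, leaving out 1 array gave 23 to 44 calls, 22 to 43 rises and 0 to 3 falls, and 0 falls without the block. For the change from 4 h to 8 h the calls numbered 199 without the block, 198 with quantile normalization and 190 to 401 with 1 array left out, and the downward ones 79, 49 and 68 to 202. CpG ODN against medium gave 1127 calls without the block, 1105 with quantile normalization and 874 to 1878 with 1 array left out. Of these 588, 489 and 454 to 1121 were falls, and rises ranged from 420 to 831. Control ODN against medium gave 0 calls and 0 falls without the block and with quantile normalization (376 and 424 genes at an unadjusted p below 0.05 by limma), and 0 to 3 calls, 0 to 3 falls and 0 to 2 rises with 1 array left out. The causes were not tested.

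Of the 177 genes that the naming rules cover, 116 kept their call in all alternatives that leave in all 6 arrays. Without each of the 6 arrays 109 kept it, and none reversed. The replicate numbers were not shown to pair CpG ODN with control ODN cultures: deviations of the CpG ODN and control ODN arrays at 8 h correlated at 0.394, -0.059 and 0.512 for numbers 1, 2 and 3, and CpG ODN replicate 2 correlated best with control ODN replicate 1 (0.129), while control ODN and medium arrays of the same number at 8 h correlated at 0.484, 0.653 and 0.645. Among 77 called genes with several probes, 22 had probes of opposite sign. With 3 arrays a group and no spot intensities used, small changes and dim probes are the least certain.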
